A study of Homo sapiens with 7 samples.

Results

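The sarcomere is the repeating contractile unit of skeletal and heart muscle, and 44 genes of the sarcomere and of muscle contraction are described here in a lung squamous carcinoma cell line. The list is one of gene names, with no threshold on measured values, and was drawn up with earlier results of these data known. It covers muscle actins, myosin heavy and light chains, myosin-binding proteins, troponins, tropomyosins, giant and Z-disc proteins and calcium release genes. All 44 were found among the 19038 genes that could be named on the array, through 58 of its 24826 named probes, and 12 of them had several probes. Where a gene had several probes, the brightest on average stands for it.

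In striated muscle, myosin heavy chains carry the motor that pulls on actin filaments, with the light chains bound to their necks. Calcium released from the sarcoplasmic reticulum through ryanodine receptors binds troponin, which moves tropomyosin off the myosin-binding sites of actin. Smooth muscle uses its own actins and its own myosin heavy chain, switched on by phosphorylation of a light chain, and epithelial cells build contractile bundles from non-muscle isoforms of the same families.

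The study asked how loss of deadenylases, the enzymes that shorten the poly(A) tails of mRNAs, alters gene expression in NCI-H520, an established human line from a squamous cell lung carcinoma. Cells received 6 μg of pLKO.1 plasmid by liposome transfection, puromycin at 6 μg/mL from 12 h, and were harvested at 72 h. There were 7 groups of 1 array each, namely the empty vector, a non-target shRNA without homology to known genes, and shRNAs against PARN, CNOT6, CNOT6L, CNOT7 and nocturnin (NOC). The labels give the CNOT6L and NOC plasmids the same target accession, so the identity of that pair is uncertain, and a pool of selected cells stands behind each array. As no group was replicated, a difference between 2 arrays has no replicate error and carries no p-value.

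Levels are log2 processed Cy3 signals relative to the 75th percentile of the same array, so that 0 equals that percentile. Probes differ in brightness for reasons other than transcript number, and levels are therefore compared between arrays for a gene and not between genes. The 75th percentile lay between a signal of 1366 (CNOT6 shRNA) and 3986 (CNOT7 shRNA), and the share of probes well above background was highest on the empty-vector array (91.4%) and lowest on the non-target array (82.0%). The epithelial genes SOX2, DSP, KRT8, KRT18 and EPCAM were above background on all 7 arrays, as were the squamous markers KRT6A, KRT17, DSC3 and PKP1, whereas KRT5, TP63, KRT14 and DSG3 were so on 4, 2, 1 and 0 arrays. The silenced gene was at its lowest on its own array for PARN (45.8% of the mean of the controls), CNOT7 (54.2%), CNOT6L (63.0%) and NOC (74.3%), and the CNOT6 transcript was not analysed here. For NOC the level was -4.96 on its own array and -4.89 with CNOT7 shRNA. Its own array differed by -0.22 from the non-target shRNA and by -0.64 from the empty vector. The PARN and CNOT6 arrays shared a row of the slide with both controls, and the CNOT6L, CNOT7 and NOC arrays lay in the other row, so that row and shRNA cannot be told apart for those 3.

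Most members had dim probes in these cells. Well above background on all 7 arrays were 33 of the 44, against 86.5% of all named genes, 10 passed on 1 to 6 arrays, and MYH1, an adult fast myosin heavy chain, passed on none. All named genes were divided by mean signal into 4 bins of equal size, and the dimmest bin held 18 members, the next 15, the one after 6 and the brightest 5. The count of members above background ranged from 34 on the non-target array to 41 on the empty-vector and CNOT7 arrays.

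**Figure D1:**
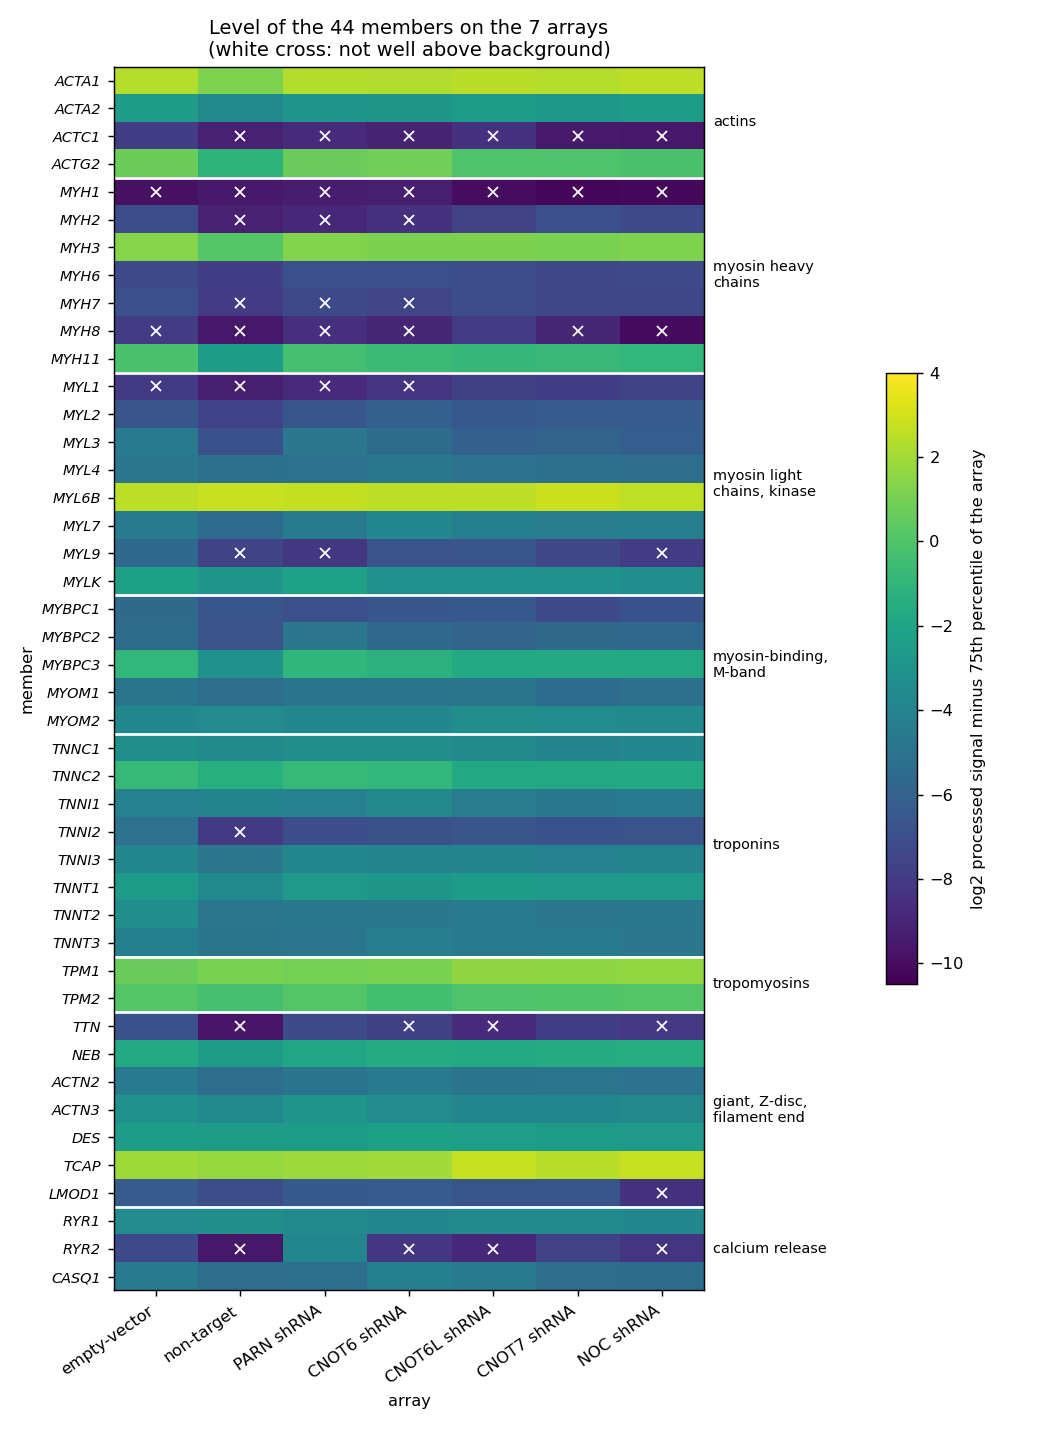
Level of each of the 44 members (rows, grouped by role) on the 7 arrays (columns), as log2 processed signal relative to the 75th percentile of the array; a white cross marks a probe not well above background. The non-target column is darker than its neighbours for ACTA1, ACTG2, MYH3, MYH11 and MYBPC3, and the crosses fall mostly on cardiac and adult skeletal isoforms.

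The clearest difference lay between the control arrays. A gene was counted when it differed by at least 2-fold and its brighter side was well above background, and a side not above background was raised, where it lay lower, to the smallest level that passed on its array, which makes such a fold a lower bound. By this count 16 of the 44 members were higher with the empty vector than with the non-target shRNA, against 11% of all named genes, and 0 were lower, against 0.578%. The median difference of the members was 0.95 on the log2 scale, against 0.06 over all genes, and 38 of the 44 differences were positive. The spread between replicate spots of one array, a printing error only, had a median SD of 0.06 for members above the dimmest bin and 0.21 in the dimmest bin. Fewer cells of a kind and less RNA per cell cannot be told apart in such bulk samples.

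Dim genes as a whole were higher on the empty-vector array, so the members were read bin by bin. In order of rising signal, 31.5%, 9.73%, 2.12% and 0.714% of all genes were counted as higher with the empty vector. Among the members the counts were 8 of 18, 3 of 15, 3 of 6 and 2 of 5. In the brighter pair of bins, where every gene was above background on all 7 arrays, these were 5 of 11 members, against 1.42% of all genes. The 5 were ACTA1, ACTG2, MYH3, MYH11 and MYBPC3, and they were also the only members still counted after a different background correction (normexp), which left 5 of 44, against 1.83% of all genes.

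**Figure D2:**
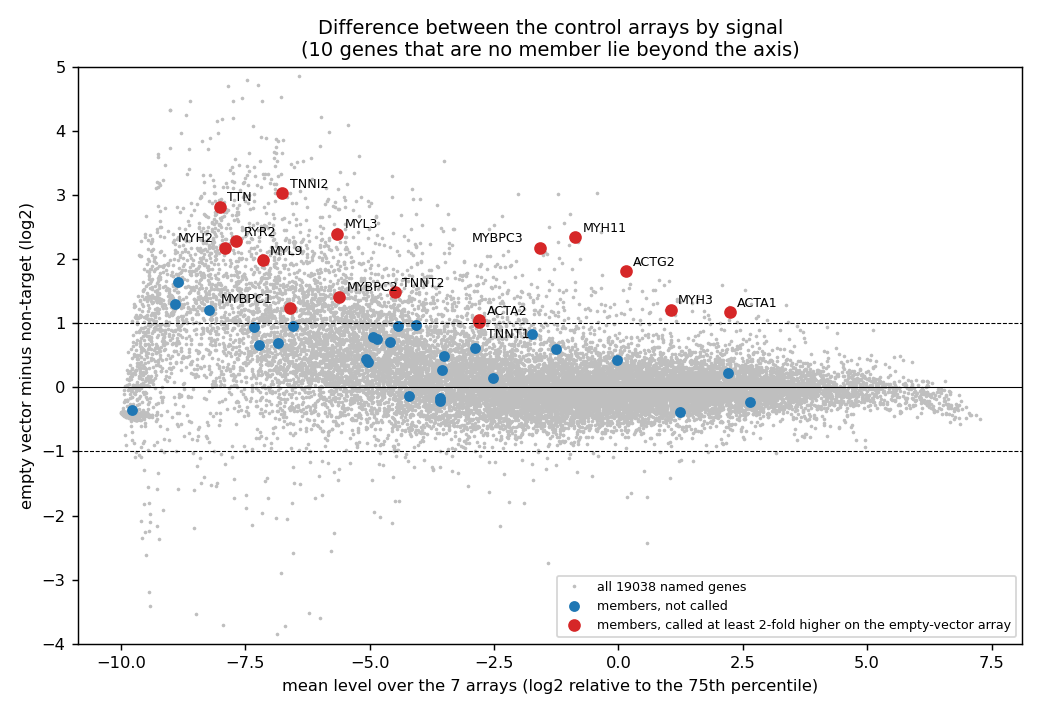
Difference between the empty-vector and the non-target array (y axis, log2, values as measured) against the mean level over the 7 arrays (x axis, log2 relative to the 75th percentile) for all 19038 named genes (grey) and the 44 members (coloured). The grey cloud widens upward on the dim left side, while ACTA1, MYH3, ACTG2, MYH11 and MYBPC3 stand above the dashed 2-fold line in the narrow part of the cloud.

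The muscle actins form the thin filament. ACTA1, the skeletal muscle isoform, was measured by 10 spots and had a level of 2.37 with the empty vector, 1.20 with the non-target shRNA, 2.34 with PARN shRNA, 2.29 with CNOT6 shRNA, 2.52 with CNOT6L shRNA, 2.37 with CNOT7 shRNA and 2.57 with NOC shRNA. Hence 6 arrays lay within 0.29 of one another and the non-target array lay 1.08 below the lowest of them, with a SD between spots of 0.06 to 0.09. ACTG2, the enteric smooth muscle actin, had levels of 0.72, -1.09, 0.69, 0.83, 0.02, 0.02 and -0.17 in the same order of arrays. The non-target array was again lowest, 0.92 below the next, and the 3 arrays of the second slide row were lower than the other 3.

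ACTA2, the vascular smooth muscle actin, followed ACTA1 at a lower signal, with -3.57 on the non-target array and -2.89 to -2.50 on the other 6. ACTC1, the cardiac actin, was above background on the empty-vector array only, at a signal of 14. These 4 proteins are nearly identical in sequence, and the specificity of their probes was not examined here.

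Serum response factor is a known regulator of muscle actin genes through the CArG box, and the promoters of ACTA1, ACTG2 and MYBPC3 are shown, the ones among the 5 bright genes above that the table used held. The sequences are the 250 bases before the RefSeq gene start (GRCh38.p14), with an entry for 28 of the 44 members. Capitals mark CArG boxes in ACTA1 (minus strand, chr1:229434095-229434344) and ACTG2 (plus strand, chr2:73892758-73893007), and the MEF2 site in MYBPC3 (minus strand, chr11:47352703-47352952), each written 5′ to 3′ toward the gene.
ACTA1: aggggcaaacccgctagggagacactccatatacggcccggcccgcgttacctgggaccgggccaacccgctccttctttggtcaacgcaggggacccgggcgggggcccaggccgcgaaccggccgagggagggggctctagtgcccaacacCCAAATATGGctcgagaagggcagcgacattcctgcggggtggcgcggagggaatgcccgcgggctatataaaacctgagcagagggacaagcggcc
ACTG2: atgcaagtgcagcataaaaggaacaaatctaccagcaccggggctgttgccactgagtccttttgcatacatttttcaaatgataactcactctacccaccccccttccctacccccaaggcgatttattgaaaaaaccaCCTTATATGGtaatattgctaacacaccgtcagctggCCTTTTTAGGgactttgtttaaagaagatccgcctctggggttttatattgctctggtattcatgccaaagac
MYBPC3: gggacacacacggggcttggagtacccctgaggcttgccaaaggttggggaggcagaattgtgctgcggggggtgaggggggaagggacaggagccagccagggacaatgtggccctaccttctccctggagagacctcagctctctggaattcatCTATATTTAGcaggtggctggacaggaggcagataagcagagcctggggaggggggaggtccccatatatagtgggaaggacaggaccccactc

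The CArG box of ACTA1 started 97 bases before the gene start, and those of ACTG2 started 110 and 73 bases before it. On both strands, a CArG box was found in 6 of the 28 member promoters (ACTA1, ACTC1, ACTG2, MYL7, MYLK and MYOM1), against 1.14% of all 27305 promoters of the same length. A MEF2 site was found in 4 (MYH1, MYH8, MYBPC3 and TTN), against 2.90%. The letters TATAAA, which can lie inside either of the longer motifs, were found in 11 of 28, against 11.1%, and the E-box CANNTG in 21 of 28, against 62.2%. Of the 6 members with a CArG box, ACTA1 and ACTG2 were counted as higher with the empty vector and the other 4 were not. A match describes the letters in this window and not a bound site. Among the 10 listed transcription factors of muscle genes, among them SRF and the MEF2 family, 0 were counted in either direction between the controls, with a median difference of -0.07. Of all named genes 11% were counted as higher with the empty vector and 0.578% as lower. The median level of these factors was -0.59, against -1.74 for all named genes. In the third bin by rising signal, 2.12% of all genes were higher and 0.399% lower, so few counts could arise among them.

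The myosin heavy chains are the motors of the thick filament. MYH3, the embryonic skeletal isoform, had levels of 1.38 with the empty vector, 0.17 with the non-target shRNA, 1.27 with PARN shRNA, 1.13 with CNOT6 shRNA, 1.13 with CNOT6L shRNA, 1.10 with CNOT7 shRNA and 1.17 with NOC shRNA. The 6 other arrays lay within 0.28, and the non-target array 0.93 below them. MYH11, the smooth muscle heavy chain, had levels of -0.16, -2.50, -0.31, -0.61, -0.85, -0.74 and -0.91 in that order, a 5.06-fold difference between the controls. Its second probe gave a difference of 2.60 between the controls, against 2.34 for the brighter one, and was lowest on the non-target array as well.

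The remaining heavy chains were dim. MYH2, an adult fast isoform, had a signal of 25 with the empty vector and 18 to 32 on the 3 arrays of the second slide row, and was not well above background on the non-target, PARN and CNOT6 arrays, which makes the empty vector at least 2.78-fold higher than the non-target shRNA. The cardiac chains MYH6 and MYH7 and the perinatal chain MYH8 had signals of at most 28 on any array by their brightest probes, and none of them was counted between the controls. A second MYH7 probe, above background on 5 arrays, differed by 1.55 between the controls.

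Light chains support the myosin neck, and MYLK encodes the kinase that activates smooth muscle myosin. MYL6B, a light chain found outside striated muscle too, was even across the arrays, with levels from 2.54 to 2.84. MYL3, the ventricular and slow skeletal essential light chain, had levels of -4.47 with the empty vector, -6.86 with the non-target shRNA, -4.77 with PARN shRNA, -5.37 with CNOT6 shRNA, -6.07 with CNOT6L shRNA, -5.90 with CNOT7 shRNA and -6.17 with NOC shRNA, so that the non-target array was lowest and the second slide row came next. MYL9, the smooth muscle regulatory light chain, had a signal of 69 with the empty vector and at most 36 elsewhere, and was at least 3.95-fold higher with the empty vector than with the non-target shRNA. MYL1, MYL2, MYL4, MYL7 and MYLK were not counted between the controls, with differences of 0.39 to 1.20, of which MYL1 was not above background on either control.

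Myosin-binding proteins brace the thick filament, and 3 of the 5 genes of this group and of the M-band were counted between the controls. MYBPC3, the cardiac isoform, had levels of -0.88 with the empty vector, -3.06 with the non-target shRNA, -0.96 with PARN shRNA, -1.16 with CNOT6 shRNA, -1.63 with CNOT6L shRNA, -1.62 with CNOT7 shRNA and -1.71 with NOC shRNA. The non-target array lay 1.35 below the next lowest, although its 2 spots differed more than elsewhere, with a SD of 0.41. MYBPC2, the fast skeletal isoform, had -5.37, -6.78, -4.77, -5.56, -5.75, -5.49 and -5.58 and was likewise lowest on the non-target array. MYBPC1, the slow skeletal isoform, showed another form, with -5.46 on the empty-vector array and -7.20 to -6.51 on the 6 others. The M-band genes MYOM1 and MYOM2 differed by 0.44 and -0.22 between the controls.

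Troponins make the thin filament sensitive to calcium, and TNNI2, TNNT1 and TNNT2 of the 8 were counted between the controls. TNNT2, the cardiac troponin T, had a level of -3.30 with the empty vector, against -4.78 with the non-target shRNA and -4.77 to -4.57 on the 5 deadenylase shRNA arrays. Here the empty-vector array stood 1.28 above the next, and the other 6 lay within 0.21, so that the array that stood apart was not the one that did so for ACTA1. TNNI2, the fast skeletal inhibitory subunit, had signals of 100 with the empty vector, 8.78 with the non-target shRNA, a value not well above background, and 11 to 35 elsewhere. Its empty-vector level was at least 8.14-fold that of the non-target array, with a SD between spots of up to 1.17.

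TNNT1, the slow skeletal troponin T, lay at -3.60 with the non-target shRNA and at -2.82 to -2.56 on the other 6 arrays. TNNC2, the calcium-binding subunit of fast muscle, differed in another way, with -0.76, -1.36, -0.78 and -0.89 on the 4 arrays of the first slide row and -1.68, -1.73 and -1.64 on the 3 of the second. TNNC1, TNNI1, TNNI3 and TNNT3 were not counted, with differences between the controls of -0.13 to 0.97. The lowest, -0.13, was that of TNNI1, whose second probe differed by 0.98.

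Tropomyosins, which are not confined to muscle, were not counted between the controls, with differences of -0.39 for TPM1 and 0.42 for TPM2. TPM1 had levels of 0.71 with the empty vector, 1.10 with the non-target shRNA, 0.98 with PARN shRNA, 1.09 with CNOT6 shRNA, 1.60 with CNOT6L shRNA, 1.56 with CNOT7 shRNA and 1.63 with NOC shRNA. All 3 of its probes were higher on every array of the second slide row than on any of the first. TPM2 ranged from -0.37 to 0.12, with the non-target and CNOT6 arrays lowest.

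Among giant, Z-disc and filament-end proteins, TTN, the molecular spring titin, was counted on a dim probe with a signal of 29 on the empty-vector array, at least 3.13-fold the non-target array. Its other probes were above background on at most 1 array. NEB, the thin-filament ruler nebulin, lay at -2.46 with the non-target shRNA and at -1.92 to -1.46 elsewhere, a difference of 0.84 between the controls that did not reach 2-fold. A second NEB probe, dimmer but above background on all 7 arrays, differed by 1.10 and did reach it. TCAP, the titin cap of the Z-disc, had levels of 1.94, 1.72, 1.87 and 1.98 on the first slide row and 2.73, 2.52 and 2.71 on the second. The Z-disc actinins ACTN2 and ACTN3 and desmin (DES) differed by 0.75, 0.48 and 0.14 between the controls.

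**Figure D3:**
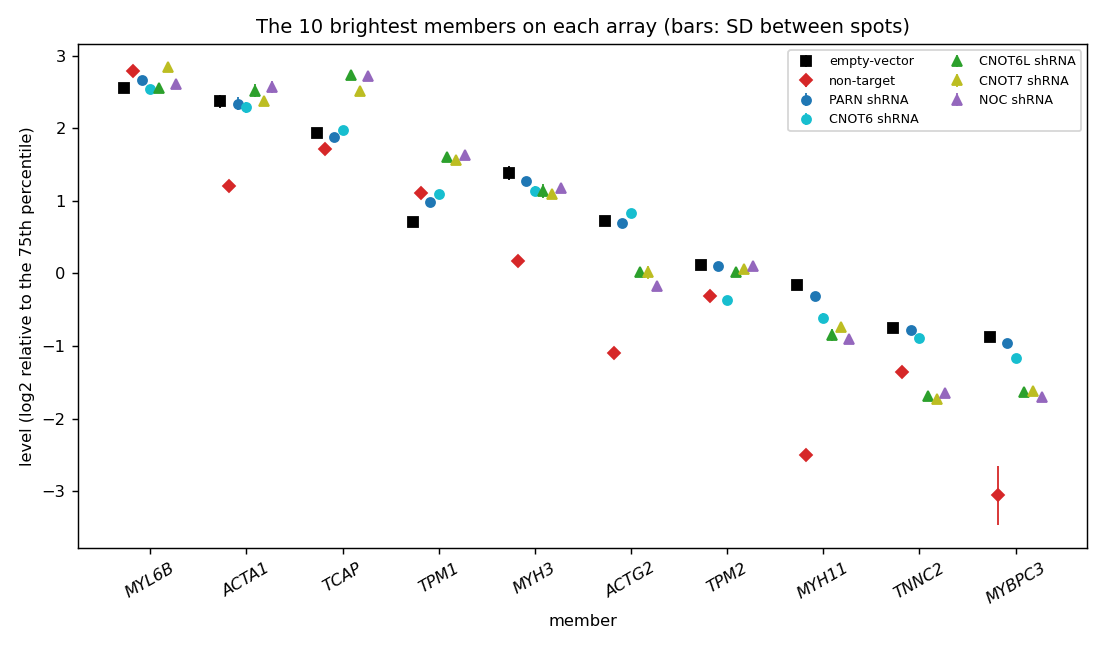
Level (y axis, log2 relative to the 75th percentile of the array) of the 10 members with the highest mean signal on each of the 7 arrays, 1 point per array, with bars for the SD between spots of the array. The red non-target point stands alone at the bottom for ACTA1, MYH3, ACTG2, MYH11 and MYBPC3, while for TCAP and TPM1 the 3 triangles of the second slide row stand above and for TNNC2 below the other 4 points.

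Over all members, the non-target array was the lowest of the 7 for 24 of the 41 that were above background on at least 2 arrays, against 23.1% of all such genes. It lay at least 0.5 below every other array for 16 of the 41, against 5.33%. The empty-vector array lay at least 0.5 above every other array for 4 of the 41 (MYL9, MYBPC1, TNNI2 and TNNT2), against 2.61%. For the 5 bright genes the gap was present within the slide row that held both controls. The mean of the empty-vector, PARN and CNOT6 arrays exceeded the non-target array by 1.13 for ACTA1, 1.84 for ACTG2, 1.09 for MYH3, 2.14 for MYH11 and 2.05 for MYBPC3. The count of members with the non-target array lowest depended on the processing, and was 17 after quantile normalization and 11 after normexp, against 16.2% and 14.3% of all genes. These counts were chosen after the values had been seen.

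Calls of the deadenylase shRNAs against both controls were few. With PARN shRNA 1 member was at least 2-fold higher than both controls, against 0.152% of all genes, and 0 were lower, against 0.331%. CNOT6 shRNA gave 0 higher and 0 lower (0.247% and 0.231% of all genes), as did CNOT6L shRNA (0.205% and 0.651%) and CNOT7 shRNA (0.2% and 0.767%). With NOC shRNA 0 members were higher, against 0.305%, and 1 was lower, against 1.02%.

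The member higher with PARN shRNA was RYR2, the cardiac ryanodine receptor that releases calcium from the sarcoplasmic reticulum. Its probe, printed as 1 spot, had signals of 149 with PARN shRNA, 21 with the empty vector, 3.03 with the non-target shRNA, 4.56 with CNOT6 shRNA, 7.89 with CNOT6L shRNA, 19 with CNOT7 shRNA and 10.5 with NOC shRNA. PARN shRNA was thus 10.8-fold above the empty vector and at least 24.4-fold above the non-target shRNA. A second RYR2 probe had levels of -6.38 with PARN shRNA, -6.52 with the empty vector and -9.04 with the non-target shRNA, so that it was not 2-fold above the empty vector. It was above background on 4 arrays, against 3 for the called probe. The called probe was chosen by its mean over all 7 arrays, so its PARN value helped to choose it. On the arrays other than PARN, the second probe was the brighter on average. RYR1, the skeletal ryanodine receptor, ranged from -3.79 to -3.35 over the arrays, and the calcium store protein gene CASQ1 from -5.35 to -4.22.

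The member lower with NOC shRNA was LMOD1, a smooth muscle leiomodin that seeds actin filaments. Its probe, also a lone spot, had signals of 39 with the empty vector, 17.4 with the non-target shRNA, 25.8 with PARN shRNA, 17.2 with CNOT6 shRNA, 33.8 with CNOT6L shRNA, 37.1 with CNOT7 shRNA and 9.67 with NOC shRNA, where the probe did not pass the background filter. The empty vector and the non-target shRNA were at least 4.01-fold and at least 2.48-fold above NOC shRNA. The second LMOD1 probe was not above background on any array. The call was lost without scaling between arrays, after normexp, at a 4-fold threshold, with the mean over probes, in limma and when every array had to be above background.

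The reference array decided how many members were counted. Against the non-target array alone, 10 members were higher with PARN shRNA, 10 with CNOT6, 11 with CNOT6L, 9 with CNOT7 and 10 with NOC shRNA, against 4.07%, 7.83%, 5%, 3.97% and 3.84% of all genes. In the dimmest bin these were 5, 4, 3, 4 and 4 of 18 members, against 364, 871, 654, 499 and 458 of 4760 genes. Against the empty-vector array alone, the members lower were 5, 5, 7, 7 and 9, against 4.91%, 2.34%, 6.16%, 7.19% and 8.16%. Most of these lay in the dimmest bin, with 4, 4, 6, 6 and 7 of its 18 members. Of the 4760 genes in that bin, 853, 404, 783, 1025 and 1131 were lower. In the opposite directions, only LMOD1 with NOC shRNA was lower than the non-target array, against 1.92% of all genes, and only RYR2 with PARN shRNA was higher than the empty vector, against 0.21%. For the shRNAs with 0 members, 1.32%, 1.08%, 1.45% and 1.7% of all genes were lower than the non-target array (PARN, CNOT6, CNOT6L, CNOT7) and 0.515%, 0.478%, 0.425% and 0.646% were higher than the empty vector (CNOT6, CNOT6L, CNOT7, NOC). Set against its 2 neighbours of the second slide row in place of the controls, CNOT6L and CNOT7 shRNA had 0 members counted in either direction and NOC shRNA had 0 higher and LMOD1 lower, where 0.541%, 0.2% and 0.184% of all genes were higher and 0.0998%, 0.063% and 0.163% lower. These comparisons share their control arrays and are not independent of one another. ACTA1, MYH11, MYBPC2, MYBPC3 and TNNI2 were higher than the non-target shRNA with each of the 5 shRNAs, and MYL9, MYBPC1, TNNI2 and TNNT2 were lower than the empty vector with each. Against the mean of both controls, the median difference of the members was 0.18, 0.26, 0.13, 0.13 and -0.02 for PARN, CNOT6, CNOT6L, CNOT7 and NOC shRNA, against -0.03, 0.04, -0.01, -0.04 and -0.05 over all genes.

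**Figure D4:**
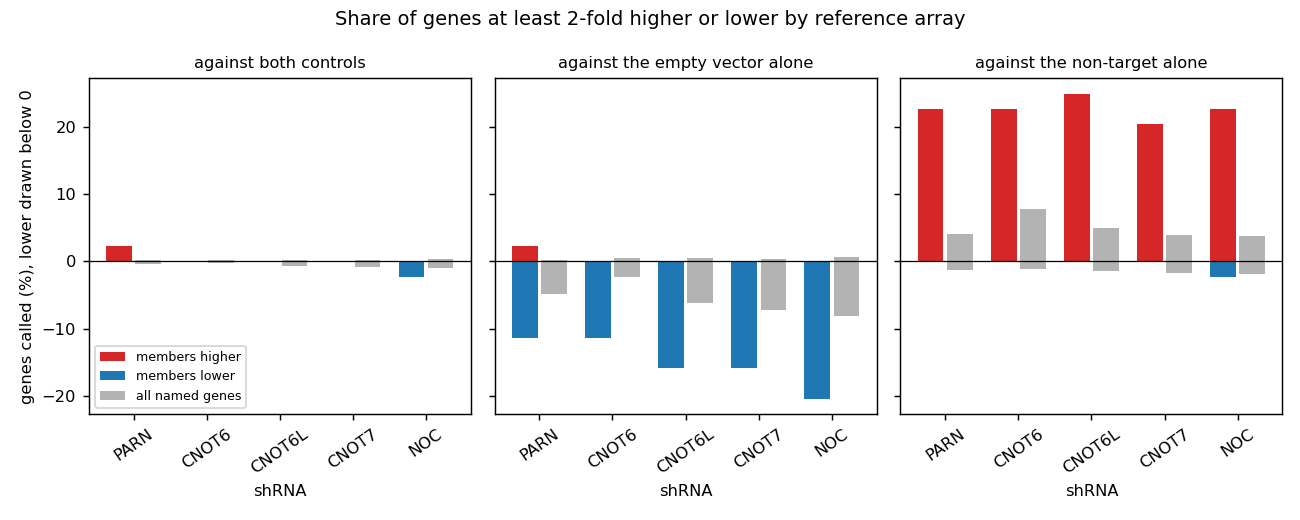
Share of the 44 members (coloured) and of all 19038 named genes (grey) at least 2-fold higher (bars above 0) or lower (bars below 0) with each shRNA, against both controls, the empty vector alone and the non-target shRNA alone. The bars of the members are near 0 in the first panel, point down in the second (except RYR2 with PARN shRNA) and point up in the third (except LMOD1 with NOC shRNA).

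A linear model (limma) of the 5 deadenylase shRNA arrays against the 2 control arrays fitted 41 members among 38004 probes. By its Benjamini-Hochberg adjusted p, 0 members and 0% of all probes passed, and at an unadjusted p under 0.05 there was 1 member, against 3.74% of probes. That member was ACTA1, with a log2 difference of 0.63 and a standard error of 0.25, which did not pass after adjustment. Without the empty-vector array, the non-target array stood alone as control. The log2 differences were then 1.81 for MYH11, 1.21 for ACTA1 and 0.99 for MYH3. These members were already known to be lowest on the non-target array, and 1 control array gives no replicate error, so no p-value is given. In that fit the lone control is assumed to vary like the shRNA arrays, which were taken as replicates of one another although their targets differ.

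Between the slide rows, TPM1 and TCAP were higher on all 3 arrays of the second row than on all 4 of the first, by 0.63 and 0.78 in the means. MYL1 was above background on those 3 arrays only and so passed the filter through the row where it was high. TNNC2, ACTN3 and TNNI1 were lower without overlap, by differences of -0.74, -0.49 and -0.49. With MYL1, this makes 3 and 3 of 41 members, fewer in share than the 12.4% and 14.4% of all genes. These counts rest on the brightest probe of each gene. A second TNNI1 probe, above background on all 7 arrays, overlapped between the rows. It lay at -6.48, -6.07 and -6.17 on the second row and at -6.92 to -5.95 on the first.

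Related genes outside the 44 were set beside them. Of 40 other genes of muscle structure, metabolism and calcium handling, 9 were counted as higher with the empty vector than with the non-target shRNA, among them MYOZ1 and MYOZ3 (Z-disc calsarcins, 1.23 and 1.72) and MYH7B (a further sarcomeric heavy chain, 1.51), and 1 was lower, the small heat shock protein gene CRYAB (-2.42). Their median difference was 0.49. Of all named genes 11% were higher and 0.578% lower. This list was dim, with a median level of -4.35, against -1.74 for all named genes. Of 24 genes of the non-muscle actin and myosin cytoskeleton, all above background on the 7 arrays, 0 were counted in either direction, with a median of -0.12. This list was bright, with a median level of 1.48. In the brighter pair of bins 2.12% and 0.714% of all genes were higher, and 0.399% and 0.147% lower, so few counts could arise there. In this list ACTB, ACTG1, MYH9 and MYL6, non-muscle relatives of the actins, heavy chains and light chains above, differed by -0.26, -0.30, -0.18 and -0.24.

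Marker lists of other cell types were read between the controls in the same way. There 11% of all genes were counted as higher and 0.578% as lower. The median difference was 0.95 for the members and 0.06 for all genes. These lists were dim, with median levels of -4.90 (skeletal), -3.31 (smooth muscle), -6.24 (cardiac), -6.18 (fibroblast) and -3.75 (squamous and epithelial). In the dimmest bin of all genes 31.5% were higher and 1.07% lower, with a median difference of 0.73. In the next bin 9.73% were higher and 0.693% lower, with a median difference of 0.13. Of 6 markers of the skeletal muscle lineage 2 were higher with the empty vector (MYF6 and MYOG, both at low signal) and 1, the myoglobin gene MB, was lower, while MYF5 was above background on no array. Their median difference was 1.06, with 5 of 6 positive, and their summed level was -1.84 with the empty vector, -2.23 with the non-target shRNA and -2.62 to -1.96 with the other shRNAs. Of 6 smooth muscle markers 1 was higher (SYNPO2), with a median difference of 0.65 and summed levels of 1.14, 0.75 and 0.68 to 1.18. Of 6 cardiac markers 1 was higher (NPPA), with a median difference of 0.62 and 4 of 6 positive. Their summed level, 3.58, 4.17 and 3.53 to 4.50, rests on NKX2-5, which differed by -0.60 between the controls. Of 8 fibroblast markers 0 were counted, with a median difference of 0.27 and summed levels of -1.04, -1.59 and -1.35 to -0.76, and COL3A1 and LUM were above background on no array. Of 14 squamous and epithelial markers 2 were higher (KRT14 and TP63, both dim), with a median difference of 0.33 and summed levels of 7.17, 7.23 and 6.98 to 7.42. The part of any such cells, of the lower share of probes above background on the non-target array or of the total signal in the difference between the controls was not tested.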

How the data were processed

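Total RNA was labelled with Cy3 and hybridised to SurePrint G3 Human GE 60K arrays, 1 array per group. The authors deposited scanner files of Agilent Feature Extraction 10.7.3.1, whose processed signal is a background-subtracted intensity, and a series table of normalized log2 values. The differences between arrays in that deposited log2 table equalled those computed here within 0.02 for 100% of 33742 probes. Here, outlier spots were dropped, spots of a probe averaged, and the 75th percentile of log2 gene signals subtracted. A probe was above background when at least 50% of its spots were. Probes were named through accessions and RefSeq symbols. The 2-fold rule follows the cut-off in the authors' methods, with 4-fold as an alternative. limma 3.58.1 (R 4.3.3) was fitted with a mean-variance trend on probes above background on at least 2 arrays, and was tested on simulated data. Named are the 10 members of highest signal above background on all arrays, those counted against both controls, and the 10 largest differences between the controls. The members, lists and rule were chosen with earlier results of these data known. Wild-type cells were not analysed here.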

Additional observations from a re-analysis of the deposited data

How the results depend on the processing

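The 16 members higher with the empty vector than with the non-target shRNA (11% of all genes) became 9 after quantile normalization (3.69%) and 5 after normexp (1.83%). At a 4-fold threshold 4 remained, for which no share of all genes is given here. With both arrays required above background 11 remained, share likewise not given, and the other 5 rest on a bound. Without scaling between arrays there were 29 (21.6%). The median difference of all genes was then 0.55, against 0.06 with scaling. RYR2 turned to -0.0599 in that comparison after normexp. Without scaling, 4 members were lower with CNOT6 shRNA, against 19.1% of all genes. With CNOT6L shRNA 1 member was higher and with CNOT7 shRNA 1 (TPM1 in both), against 0.730% and 1.40% of all genes. The member lower with NOC shRNA was lost without scaling (0, against 0.499% of all genes). That call was also lost after normexp (0, against 0.289% of all genes), with the mean over probes (0, against 0.877%) and at 4-fold (0). For the 4-fold count no share of all genes is given here. Requiring all arrays above background removed it and the RYR2 call with PARN shRNA by construction. The NOC spot of LMOD1 and the non-target spot of RYR2 had not passed. A limma fit with 1 shRNA array in its arm has no replicate there and could not decide on either call. With the non-target array alone as control the members higher were 10, 10, 11, 9 and 10 for PARN, CNOT6, CNOT6L, CNOT7 and NOC shRNA. With the empty vector alone the members lower were 5, 5, 7, 7 and 9. The shares of all genes and of the dimmest bin are those given above. In limma over the 5 shRNA arrays, 1 member passed unadjusted, and leaving out each array in turn gave 0 to 2 called, the 2 without the empty-vector array. For these changes the cause was not tested. No paired analysis was possible because each group had 1 array and the groups shared only the number 1. Signals near background limit the dim members, and arrays without replicates give no error between cultures.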
